A study of Mus musculus with 18 samples.

Results

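Hyaluronan is a very long sugar polymer of the extracellular matrix, and 9 genes for its synthesis, binding and breakdown are described here in brown preadipocytes treated with FGF6. The genes were Has1, Has2, Has3, Cd44, Tnfaip6, Vcan, Hyal1, Hyal2 and Cemip, found as the rows of the count table whose Ensembl identifier carries that symbol in GENCODE M21 on the mouse genome GRCm38, 9 of 48023 genes. The cells were an immortalized line of mouse brown preadipocytes, the undifferentiated precursors of brown fat cells, and the labels give no genetic change. One arm received vehicle and the other FGF6, a paracrine fibroblast growth factor, and RNA was collected after 4, 8 or 24 h. Each of the 6 groups (vehicle or FGF6 at each time) held 3 libraries, 18 in all.

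Hyaluronan is built at the plasma membrane from UDP-glucuronic acid and UDP-N-acetylglucosamine by the Has synthases and pushed out of the cell as it grows. Outside the cell it is held by the receptor CD44 and by proteins such as versican (Vcan) and the product of Tnfaip6, and it is cut by hyaluronidases (Hyal1, Hyal2) and, in fibroblasts, with the help of the hyaluronan-binding protein Cemip. In adipose tissue the polymer fills the matrix around precursor cells and adipocytes.

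Library totals ranged from 24327816 to 33471980 counts, and all 9 genes passed the filter on low counts, as did 15071 genes in all. The third vehicle library at 24 h stood apart: its chi-square per degree of freedom against the other 2 of its group was 34.5 and 37.6, where the other 16 pairs of libraries within a group gave 2.34 to 7.05. The stromal markers Pdgfra, Pdgfrb, Ly6a, Thy1 and Ebf2 were present in every library with at least 793 counts, and Dlk1, a further preadipocyte marker, had 0 counts in all 18. Of the adipocyte markers, Lep was at 0 and Cidea reached 1 count at most, with the list's sum carried by Fabp4 and Pparg. Nothing in the labels says that the libraries of a group came from separate cultures, so the p-values measure the spread between these libraries, which may be technical. In bulk RNA, fewer cells making a transcript and less of it in each cell cannot be told apart.

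Values are CPM, the counts of a gene per 1e+06 counts of the library after scaling by TMM factors, a change is a log2 fold change with its standard error (SE), and a gene passed the test at a Benjamini-Hochberg adjusted p under 0.05 over all 15071 genes. The libraries of a group are given in the order of their replicate numbers. After 4 h of FGF6, 5 of the 9 genes were higher and 3 lower than in vehicle, where 62.8% of all genes tested passed (28.6% higher, 34.2% lower). At 8 h, 5 were higher and 4 lower, against 70.8% of all genes (32.4% higher, 38.4% lower). The count at 24 h was again 5 higher and 4 lower, against 73.8% of all genes (35.9% higher, 37.9% lower). Most genes of these cells thus passed at each time, so passing alone does not set the 9 apart. The median absolute log2 fold change of the 9 was 0.91, 1.03 and 1.56 at 4, 8 and 24 h, and over all genes tested it was 0.32, 0.41 and 0.48. Changes of at least 2-fold were found for 4, 5 and 5 of the 9, against 11.3%, 18.3% and 22.8% of all genes. The 9 were chosen with earlier results of these data known, so their larger changes are not independent evidence. The signed median of the 9 was 0.50, 0.41 and 0.55, and that of all genes -0.048, -0.050 and -0.022. The vehicle and FGF6 libraries did not overlap for 8, 9 and 9 of the 9 genes, as for 66.2%, 73.8% and 74.8% of all genes.

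**Figure D1:**
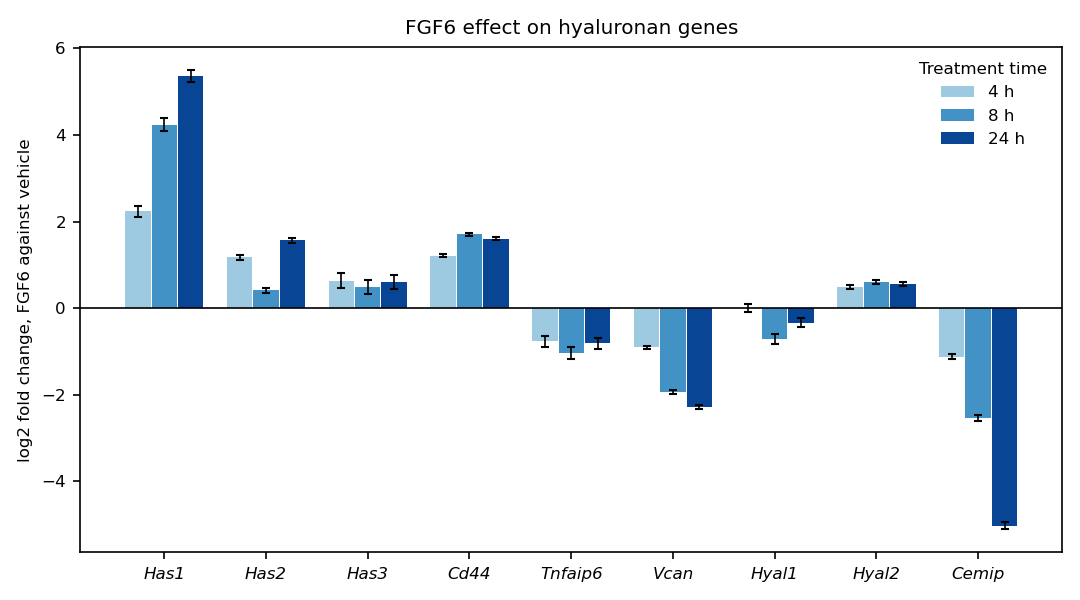
Log2 fold change of FGF6 against vehicle (y axis) for each of the 9 genes (x axis) at 4, 8 and 24 h, 3 libraries against 3. Bars show the SE from the fit, whose spread was estimated from the 18 libraries together. Has1 reached 5.36 at 24 h and Cemip -5.03, while the changes of Has3 and Hyal2 stayed between 0.49 and 0.64 at all times.

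The 250 bases before the start site are shown for the 4 genes that changed most at 24 h among those with a promoter window, so that a reader can see what the 2 that rose and the 2 that fell carry there. They are RefSeq sequences on GRCm38.p6, written 5′ to 3′ on the gene's own strand, in capitals where one of 9 short motifs matched. Has1 is read from the minus strand at chr17:17855189-17855438, Cd44 from the minus strand at chr2:102901666-102901915, Vcan from the minus strand at chr13:89742513-89742762 and Cemip from the minus strand at chr7:84086506-84086755.
Has1: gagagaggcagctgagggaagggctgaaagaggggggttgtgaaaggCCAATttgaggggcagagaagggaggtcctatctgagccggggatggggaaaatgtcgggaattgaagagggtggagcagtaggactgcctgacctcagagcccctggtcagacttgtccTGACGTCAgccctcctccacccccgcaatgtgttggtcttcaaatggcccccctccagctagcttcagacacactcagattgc
Cd44: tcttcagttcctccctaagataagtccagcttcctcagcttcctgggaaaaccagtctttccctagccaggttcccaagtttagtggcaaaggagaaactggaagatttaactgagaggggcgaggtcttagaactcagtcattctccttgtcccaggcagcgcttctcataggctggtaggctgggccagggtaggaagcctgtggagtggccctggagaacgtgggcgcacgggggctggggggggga
Vcan: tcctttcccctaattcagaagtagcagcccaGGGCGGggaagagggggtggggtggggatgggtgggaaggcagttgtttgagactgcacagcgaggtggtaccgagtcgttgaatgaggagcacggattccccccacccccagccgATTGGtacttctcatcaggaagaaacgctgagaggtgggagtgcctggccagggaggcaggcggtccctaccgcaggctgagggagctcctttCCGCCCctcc
Cemip: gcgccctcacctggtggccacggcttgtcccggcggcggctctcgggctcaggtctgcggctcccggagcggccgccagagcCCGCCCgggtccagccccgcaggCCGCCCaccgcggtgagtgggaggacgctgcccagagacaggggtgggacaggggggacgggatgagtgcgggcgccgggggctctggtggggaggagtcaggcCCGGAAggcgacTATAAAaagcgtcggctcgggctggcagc

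Each motif was searched on both strands in the 7 of 9 genes with a window and in all 32851 windows of the same length. The other synthases, Has2 and Has3, had no window and were not searched. The window of Has1 held the cyclic AMP response element TGACGTCA from 83 to 76 bases before the start, a motif found in 1.55% of all windows and in none of the other 6 genes, and a CCAAT box. That of Cemip held the ETS site CCGGAA from 41 to 36 bases before the start (12.0% of windows), the TATA box TATAAA from 29 to 24 bases before it (12.4% of windows) and 2 GC boxes. In Vcan, 2 GC boxes and 1 CCAAT box matched, and in Cd44 none of the 9 motifs did. The GC box (GGGCGG) was in 5 of the 7 genes and 32.7% of windows, and the CCAAT box (CCAAT) in 4 of the 7 and 33.8% of windows. Tnfaip6 alone of the 7 held the AP-1 site TGANTCA (6.75% of windows), and the TEAD site GGAATG was in Hyal2 and Tnfaip6 (12.6% of windows). Windows end at the RefSeq start, which can differ from the gene's position in GENCODE M21. The Hyal2 window lies wholly inside its gene there, and those of Has1, Hyal1 and Tnfaip6 end inside theirs. The E-box CACGTG (6.02% of windows) and the NF-kB site (1.41%) matched in none of the 7. GC content was 75.2% in the Cemip window, 62.4% in Vcan, 56.4% in Cd44 and 58.0% in Has1, and the median window had 52.4%. These matches describe letters in the window only.

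Has1 (ENSMUSG00000003665, chr17:17843323-17855205, minus strand), one of the 3 hyaluronan synthases, rose most of the 9 at every time. Its level in the 3 vehicle libraries at 4 h was 3.53, 3.62 and 2.84 CPM, and in the FGF6 libraries 17.6, 14.4 and 15.2 CPM. At 8 h the vehicle libraries had 1.70, 1.84 and 1.13 CPM and the FGF6 libraries 31.4, 30.1 and 27.4 CPM. At 24 h vehicle gave 2.07, 0.814 and 1.09 CPM and FGF6 53.9, 53.3 and 54.5 CPM. Every FGF6 library lay above every vehicle library, and the FGF6 libraries of the 3 times did not overlap with each other, while vehicle levels were highest at 4 h.

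Has1 was 4.70-fold higher at 4 h (log2 fold change 2.23, SE 0.13, edgeR adjusted p = 1.81e-13), 18.9-fold at 8 h (4.24, SE 0.14, edgeR adjusted p = 8.35e-19) and 41.0-fold at 24 h (5.36, SE 0.14, edgeR adjusted p = 3.65e-21). The effect grew between times when the difference itself was tested, by 2.01 on the log2 scale from 4 to 8 h (edgeR adjusted p = 1.91e-07) and by 1.12 from 8 to 24 h (edgeR adjusted p = 0.0013). From 4 to 8 h the signed log2 fold change moved up for 2 of the 9 genes and down for 4, against 30.6% of all genes (15.5% up, 15.1% down). From 8 to 24 h it moved up for 3 and down for 2, against 45.1% (22.6% up, 22.5% down). A move down can be a weaker rise, as for Has2 from 4 to 8 h, or a stronger fall, as for Vcan and Cemip. Differences of at least 2-fold were found for 3 of the 9 in each, against 3.49% and 8.49% of all genes. The first vehicle library at 24 h held 59 Has1 counts where the other 2 held 27 and 26, and without it the 24 h change was 59.3-fold (5.89). Without the second, the change was 34.2-fold (5.09), and without the third, the library that stood apart, 39.6-fold (5.31).

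Has2 (ENSMUSG00000022367, chr15:56665627-56694539, minus strand), the main synthase of connective tissue cells, rose early, less at 8 h and most at 24 h. At 4 h the vehicle libraries had 19.5, 18.6 and 18.1 CPM and the FGF6 libraries 45.0, 40.8 and 41.0 CPM. At 8 h these were 23.4, 21 and 23.8 CPM against 31.1, 29.2 and 30.3 CPM. Vehicle at 24 h stood at 13.7, 13.8 and 13.4 CPM and FGF6 at 41.9, 39.3 and 39.6 CPM. The arms did not overlap at any time, and the smaller gap at 8 h came with both the highest vehicle levels and the lowest FGF6 levels of the series for this gene.

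The Has2 fold change was 2.26 at 4 h (log2 1.17, SE 0.055, edgeR adjusted p = 1.01e-15), 1.33 at 8 h (log2 0.41, SE 0.055, edgeR adjusted p = 2.94e-07) and 2.96 at 24 h (log2 1.56, SE 0.058, edgeR adjusted p = 3.43e-18). The effect at 8 h fell by 0.76 from that at 4 h on the log2 scale (edgeR adjusted p = 4.33e-08) and then rose by 1.15 to 24 h (edgeR adjusted p = 1.17e-11). Of its 4237 exonic bases, 182 are shared with Has2os, a transcript on the opposite strand, and whether the counting used strand is not given in the sources used here. Has2os itself held 15 to 37 counts in the 18 libraries and did not pass the test at 4, 8 or 24 h.

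Has3 (ENSMUSG00000031910, chr8:106870242-106884566, plus strand), the synthase of shorter hyaluronan chains, rose by less than 2-fold at each time. It lay between 1.55 and 2.80 CPM in the 9 vehicle libraries and between 2.49 and 3.85 CPM in the 9 FGF6 libraries, with no overlap of the arms within a time. The log2 fold change was 0.64 (SE 0.17, edgeR adjusted p = 0.00215) at 4 h, 0.49 (SE 0.16, edgeR adjusted p = 0.00691) at 8 h and 0.61 (SE 0.16, edgeR adjusted p = 0.00146) at 24 h. Neither difference between times passed the test (-0.14 from 4 to 8 h, edgeR adjusted p = 0.70, and 0.12 from 8 to 24 h, edgeR adjusted p = 0.71). The counts were low, at 50 to 107 a library, and without the first vehicle library at 8 h the 8 h change was 0.36 with an edgeR adjusted p of 0.0605. It shares 352 of 6380 exonic bases with Chtf8 on the other strand.

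Levels per kilobase of exon compare genes only roughly, since the length merges all annotated exons and may differ from that of the transcripts present. On this scale the 3 synthases together stood at 5.43 ± 0.265 CPM per kb (SD, n = 3) in vehicle at 4 h, 6.10 ± 0.251 at 8 h and 3.85 ± 0.118 at 24 h. With FGF6 the sum was 13.9 ± 0.932, 14.2 ± 0.552 and 22.0 ± 0.328 CPM per kb. No library of one arm reached the other. Has2 made up 81.4% ± 1.14 of the vehicle sum at 4 h, 88.0% ± 2.20 at 8 h and 83.3% ± 2.24 at 24 h. Its share with FGF6 was 71.9% ± 1.01, 50.2% ± 1.66 and 43.2% ± 1.01. Has1 went the other way, from 13.5% ± 1.31, 5.69% ± 1.56 and 7.54% ± 3.5 of the sum in vehicle to 25% ± 0.957, 46.0% ± 1.74 and 54.3% ± 0.649 with FGF6. Has1 was thus the most abundant synthase transcript per length in all 3 FGF6 libraries at 24 h. Has3 held 5.08%, 6.35% and 9.19% of the vehicle sum and 3.11%, 3.82% and 2.46% of the FGF6 sum, although its own level rose. No test was run on these sums and shares.

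**Figure D2:**
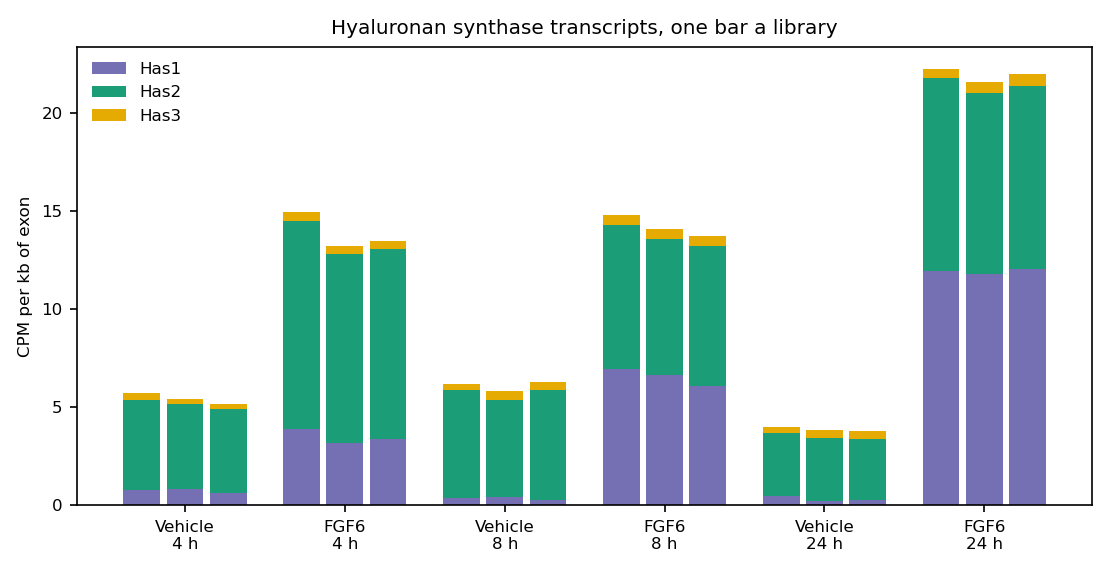
Sum of the 3 hyaluronan synthase transcripts in CPM per kilobase of exon (y axis), one bar for each of the 18 libraries by treatment and time (x axis), divided into Has1, Has2 and Has3. The vehicle bars average 3.85 to 6.10 and the FGF6 bars 13.9 to 22.0, and the Has1 part averages 54.3% of the bar with FGF6 at 24 h.

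Among the binding genes, Cd44 (ENSMUSG00000005087, chr2:102811141-102901665, minus strand), the main cell surface receptor of hyaluronan, rose at every time. At 4 h vehicle had 198, 197 and 205 CPM and FGF6 457, 461 and 471 CPM. At 8 h the values were 147, 140.0 and 135 CPM against 459, 455 and 461 CPM, and at 24 h 171, 159.9 and 165 CPM against 525, 500.1 and 485 CPM. The arms lay far apart, and the FGF6 libraries at 4 and 8 h overlapped while vehicle was lower at 8 h than at 4 h. The change was 2.31-fold at 4 h (log2 1.21, SE 0.0359, edgeR adjusted p = 1.04e-19), 3.26-fold at 8 h (log2 1.71, SE 0.0365, edgeR adjusted p = 8.32e-23) and 3.04-fold at 24 h (log2 1.61, SE 0.0363, edgeR adjusted p = 1.32e-22). From 4 to 8 h the effect grew by 0.49 on the log2 scale (edgeR adjusted p = 4.4e-08), and the later step to 24 h moved it by -0.0995 (edgeR adjusted p = 0.114). This later difference passed with DESeq2 (-0.12, adjusted p = 0.0431), with at least 10 counts in every library (-0.13, edgeR adjusted p = 0.0349), and without the first FGF6 library at 24 h (edgeR adjusted p = 0.0416) or the first vehicle library at 8 h (edgeR adjusted p = 0.0400). Counts per gene do not separate the splice forms of CD44.

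Vcan (ENSMUSG00000021614, chr13:89655312-89742509, minus strand) encodes versican, a large proteoglycan that binds hyaluronan through its head domain, and it fell further at each time. The vehicle libraries had 811, 827 and 775 CPM at 4 h, 1215, 1311 and 1327 CPM at 8 h and 1089.6, 1159 and 1206 CPM at 24 h. Those with FGF6 had 422, 424 and 439.9 CPM at 4 h, 337, 330.2 and 347 CPM at 8 h and 256, 230.3 and 221 CPM at 24 h. The arms did not overlap, and each later FGF6 group lay below the one before. Vcan was 1.88-fold lower at 4 h (log2 -0.91, SE 0.0447, edgeR adjusted p = 3.42e-15), 3.8-fold lower at 8 h (log2 -1.93, SE 0.0459, edgeR adjusted p = 6.17e-22) and 4.88-fold lower at 24 h (log2 -2.29, SE 0.0466, edgeR adjusted p = 1.52e-23). The effect differed by -1.02 between 4 and 8 h (edgeR adjusted p = 9.52e-12) and by -0.36 between 8 and 24 h (edgeR adjusted p = 4.08e-05).

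Tnfaip6 (ENSMUSG00000053475, chr2:52038009-52056686, plus strand) encodes a secreted protein that moves heavy chains of inter-alpha-inhibitor onto hyaluronan and so crosslinks it. It was lower with FGF6 at all times, at 5.44 to 7.48 CPM in the 9 vehicle libraries and 2.54 to 4.32 CPM in the 9 FGF6 libraries, which did not overlap. The log2 fold change was -0.77 (SE 0.13, edgeR adjusted p = 1.02e-05) at 4 h, -1.03 (SE 0.13, edgeR adjusted p = 1.85e-07) at 8 h and -0.81 (SE 0.13, edgeR adjusted p = 2.72e-06) at 24 h. The differences of -0.27 from 4 to 8 h and 0.23 from 8 to 24 h did not pass the test (edgeR adjusted p = 0.313 and 0.344).

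Of the breakdown genes, Cemip (ENSMUSG00000052353, chr7:83932857-84086502, minus strand), whose product binds hyaluronan and is needed for its depolymerization in fibroblasts, fell most of the 9. At 4 h vehicle had 41.1, 43.3 and 41.4 CPM and FGF6 20.1, 18.8 and 19.1 CPM. At 8 h the values were 34.8, 33.9 and 34.7 CPM against 5.89, 6.49 and 5.38 CPM. By 24 h vehicle stood at 51.3, 57.0 and 54.3 CPM and FGF6 at 1.90, 1.54 and 1.54 CPM, which were 52, 43 and 42 counts. The arms never overlapped, and the FGF6 level was lower at each later time while the vehicle level was highest at 24 h.

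Cemip was 2.17-fold lower at 4 h (log2 -1.12, SE 0.0547, edgeR adjusted p = 2.96e-15), 5.79-fold at 8 h (log2 -2.53, SE 0.0666, edgeR adjusted p = 4.59e-21) and 32.6-fold at 24 h (log2 -5.03, SE 0.0814, edgeR adjusted p = 1.82e-25). The effect changed by -1.42 from 4 to 8 h (edgeR adjusted p = 1.19e-11) and by -2.49 from 8 to 24 h (edgeR adjusted p = 1.65e-14). Without the vehicle library that stood apart, the 24 h change was -4.99.

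Hyal2 (ENSMUSG00000010047, chr9:107567945-107572779, plus strand), a hyaluronidase anchored at the cell surface that cuts long chains into shorter ones, was moderately higher throughout. It measured 53.2 to 56.4 CPM in vehicle and 75.8 to 79.8 CPM with FGF6 at 4 h, 44.5 to 46.0 against 68.7 to 69.8 CPM at 8 h. At 24 h the vehicle libraries spanned 44.4 to 50.8 CPM and the others 66.1 to 72.2 CPM, so that the arms did not overlap at any time. The log2 fold change was 0.50 (SE 0.0451, edgeR adjusted p = 5.47e-10), 0.61 (SE 0.0459, edgeR adjusted p = 9.39e-12) and 0.55 (SE 0.0461, edgeR adjusted p = 5.84e-11). Its effect moved by 0.12 from 4 to 8 h and by -0.060 from 8 to 24 h, and neither passed the test (edgeR adjusted p = 0.192 and 0.488).

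Hyal1 (ENSMUSG00000010051, chr9:107576927-107581710, plus strand), the lysosomal hyaluronidase that digests shorter fragments, was the only one of the 9 that did not pass at 4 h. The vehicle libraries had 9.86, 10.2 and 9.68 CPM there and the FGF6 libraries 10.8, 9.59 and 9.59 CPM, which overlapped (log2 0.0089, SE 0.094, edgeR adjusted p = 0.944). At 8 h it had 8.11, 7.44 and 6.54 CPM against 4.43, 4.81 and 4.19 CPM (log2 -0.72, SE 0.11, edgeR adjusted p = 2.41e-06). At 24 h the libraries lay close, at 6.45, 8.47 and 7.74 CPM against 5.98, 5.75 and 6.2 CPM (log2 -0.34, SE 0.11, edgeR adjusted p = 0.00598). Hyal1 was thus lower from 8 h on, and the 24 h gap rested on one library: without the second vehicle library it was -0.19 with an edgeR adjusted p of 0.136.

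The Hyal1 effect differed by -0.73 between 4 and 8 h (edgeR adjusted p = 0.000397) and by 0.38 between 8 and 24 h (edgeR adjusted p = 0.0462). The latter missed the threshold with limma-voom (adjusted p = 0.0662) and with DESeq2 (adjusted p = 0.0807). Its counts are uncertain, since 1961 of its 3777 exonic bases also belong to Hyal3 or Naa80 on the same strand and 52.5% of its 31-base words occur in transcripts of other genes. For the other 8 genes that share of words was at most 5.07%, and no word was shared between any of the 9.

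**Figure D3:**
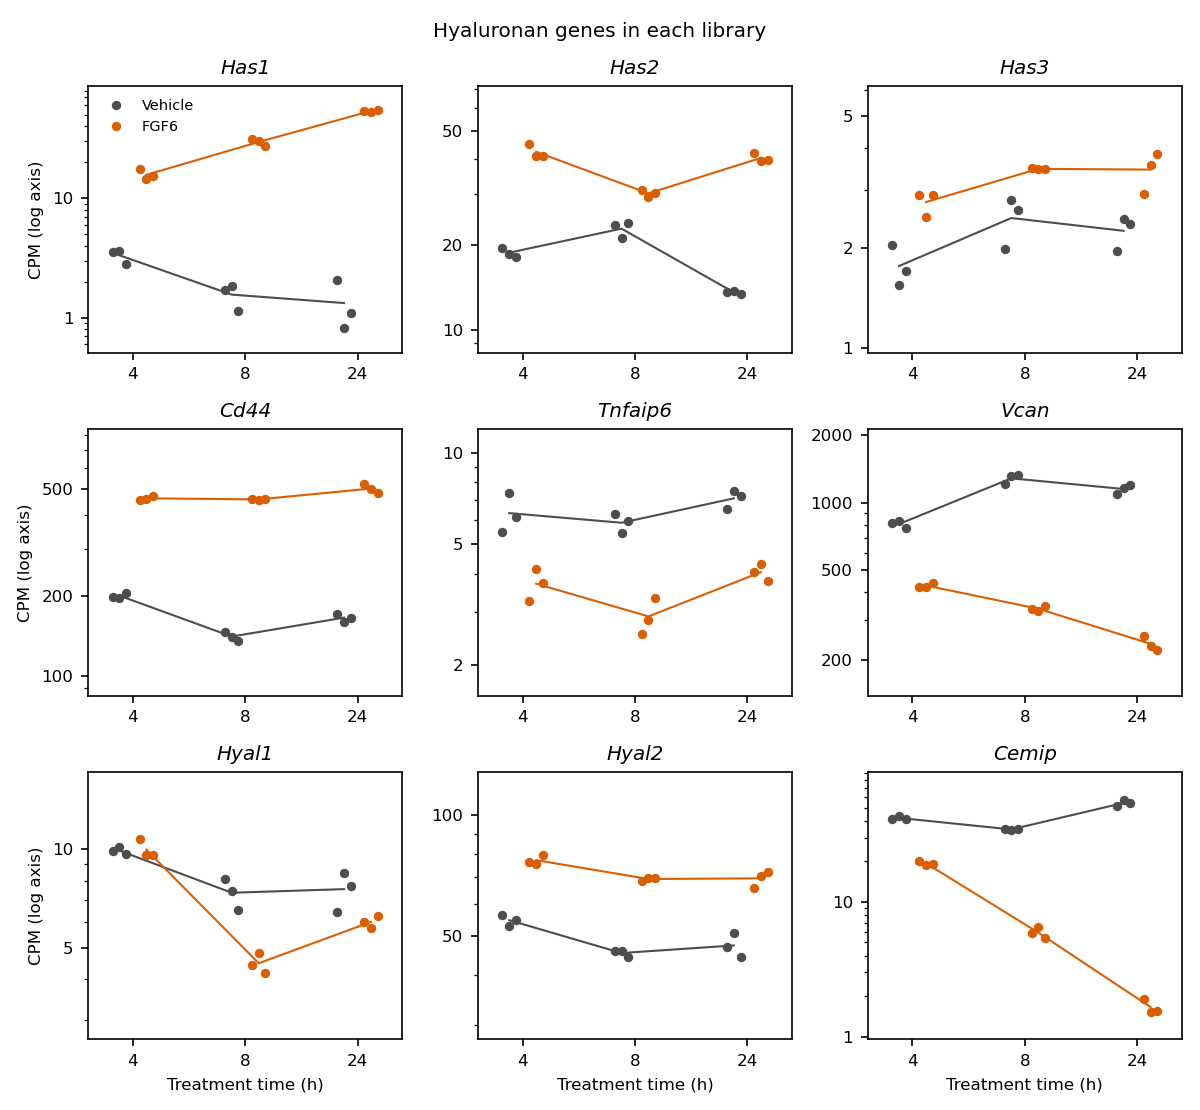
CPM on a log axis (y axis) against treatment time (x axis) for the 9 genes, one point a library, with lines through the mean of 3 libraries for vehicle and FGF6. The arms are apart at every time for all genes but Hyal1 at 4 h, and the Has1 and Cemip arms part further with time, to 53.9 against 1.32 CPM and 1.66 against 54.2 CPM at 24 h.

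Vehicle cells themselves changed over the course. From 4 to 24 h in vehicle, 2 of the 9 genes were higher and 5 lower, where 60.8% of all genes passed (30.9% higher, 30.0% lower), and 1 changed at least 2-fold, against 8.24% of all genes. Has1 fell by 1.34 on the log2 scale (edgeR adjusted p = 6.63e-06), Has2 by 0.46, Hyal1 by 0.39, Cd44 by 0.27 and Hyal2 by 0.21, while Vcan rose by 0.52 and Cemip by 0.37. Has3 (0.36, edgeR adjusted p = 0.0819) and Tnfaip6 (0.16, edgeR adjusted p = 0.241) did not pass. Without the first vehicle library at 24 h the Has1 value was -1.85, and without the second -1.06.

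Under FGF6 over the same interval, 2 of the 9 were higher and 4 lower, against 71.2% of all genes (35.2% higher, 36.0% lower), and 2 changed at least 2-fold, against 19.5%. Has1 rose by 1.78 on the log2 scale (edgeR adjusted p = 1.16e-14) and Cd44 by 0.12 (edgeR adjusted p = 0.00351). Cemip fell by 3.54 (edgeR adjusted p = 4.78e-21), Vcan by 0.86, Hyal1 by 0.74 and Hyal2 by 0.15. Has2 (-0.071, edgeR adjusted p = 0.218), Has3 (0.33, edgeR adjusted p = 0.0637) and Tnfaip6 (0.12, edgeR adjusted p = 0.44) did not pass. The Cd44 rise no longer passed when genes were kept without a filter (0.075, edgeR adjusted p = 0.0915) or with at least 10 counts in every library (0.073, edgeR adjusted p = 0.0653). Has2 passed with that count minimum (-0.12, edgeR adjusted p = 0.0402), and Has3 passed when scaled by total counts only (0.37, edgeR adjusted p = 0.0380) and without the first FGF6 library at 24 h (0.44, edgeR adjusted p = 0.0249). Both intervals share libraries with the comparisons of FGF6 against vehicle.

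The order of the levels per length changed with FGF6. In vehicle at 24 h, Vcan stood first at 79.6 ± 4.04 CPM per kb (SD, n = 3), before Cd44 at 24.4 ± 0.835 and Hyal2 at 14.4 ± 0.979. Cemip at 4.43 ± 0.232 and Tnfaip6 at 4.14 ± 0.281 overlapped, followed by Has2 at 3.21 ± 0.0471 and Hyal1 at 2.00 ± 0.272. Has3 at 0.353 ± 0.0401 and Has1 at 0.293 ± 0.146 came last and overlapped. The place of Hyal1 is uncertain in every group, since 1961 of its 3777 exonic bases also belong to Hyal3 or Naa80 on the same strand. Vcan, Cd44 and Hyal2 held the first 3 places in that order in vehicle at 4 and 8 h too, and no library of one reached the next.

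With FGF6 at 24 h the order was Cd44 at 74.3 ± 2.95 CPM per kb, Hyal2 at 21.2 ± 0.976, Vcan at 16.3 ± 1.23, Has1 at 11.9 ± 0.134 and Has2 at 9.50 ± 0.335. Below them came Tnfaip6 at 2.37 ± 0.158, Hyal1 at 1.59 ± 0.0646, Has3 at 0.540 ± 0.0752 and Cemip at 0.136 ± 0.0169. No neighbours overlapped in this group, with the same limit on the place of Hyal1. Cd44 led at all FGF6 times, Has1 and Has2 overlapped at 8 h, and Cemip was last of the 9 from 8 h on.

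**Figure D4:**
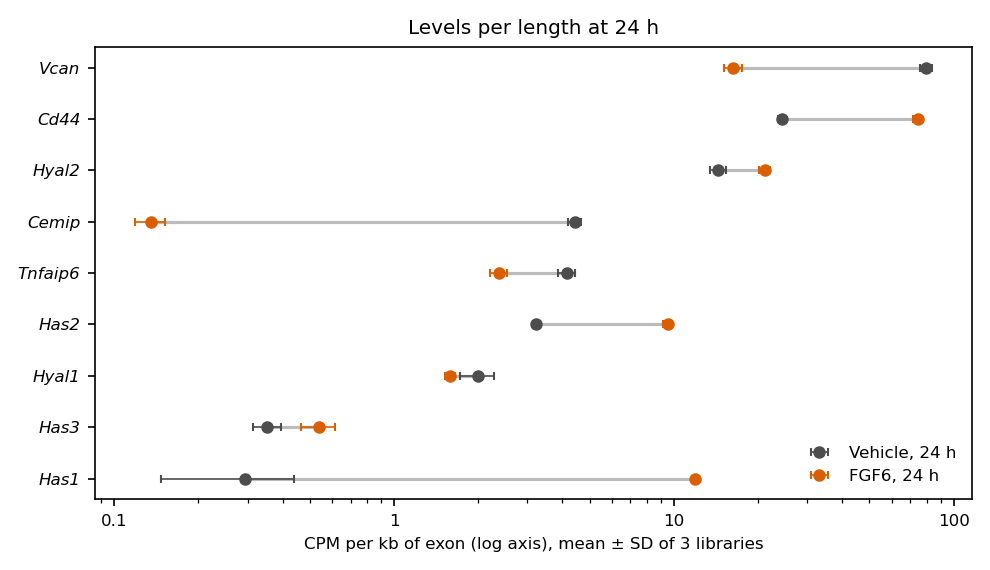
Level per length at 24 h in CPM per kilobase of exon (x axis, log scale) for the 9 genes (y axis), as mean ± SD of 3 libraries for vehicle and FGF6, joined by a line. Cemip spans the interval from 4.43 down to 0.136 and Has1 that from 0.293 up to 11.9.

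The wider pathway was described from lists of gene names by role, whose counts stand against the 62.8%, 70.8% and 73.8% of all genes that passed at 4, 8 and 24 h. Of 7 genes that supply the sugar precursors, 4 were higher and 2 lower at 4 h, 3 and 4 at 8 h, and 5 and 2 at 24 h, or 6, 7 and 7 of 7. Their median log2 fold change was 0.17, -0.16 and 0.23 at the 3 times, and that of all genes -0.048, -0.050 and -0.022. Gfpt2, which makes the first committed step of the hexosamine pathway, went from 26.4 ± 1.31 CPM in vehicle to 79.5 ± 2.14 with FGF6 at 4 h (log2 fold change 1.59, edgeR adjusted p = 4.2e-20) and was higher by 1.00 at 24 h (edgeR adjusted p = 1.9e-15). Gnpnat1, which acetylates the glucosamine, was higher by 0.98 at 24 h (edgeR adjusted p = 1.51e-11), although 3952 of its 4735 exonic bases overlap Styx or Gm25353. Ugp2, which makes UDP-glucose, was lower by a log2 of -0.83, -0.76 and -0.64 at 4, 8 and 24 h, and Ugdh, which oxidizes it to UDP-glucuronic acid, moved by 0.17, -0.20 and 0.33, all of which passed the test.

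Of 5 further receptors, 4 were tested, and 1 was higher and 2 lower at 4 h, 1 and 1 at 8 h, and 1 and 2 at 24 h, or 3, 2 and 3 of 4, where 62.8%, 70.8% and 73.8% of all genes passed. Layilin (Layn), a membrane receptor of hyaluronan, rose from 52.3 ± 1.52 to 158 ± 8.76 CPM at 4 h (log2 fold change 1.59, edgeR adjusted p = 4.68e-21). It was higher by 1.69 at 8 h (edgeR adjusted p = 1.02e-21) and by 0.99 at 24 h (edgeR adjusted p = 7.72e-17). The scavenger receptors Stab2 (4 to 12 counts with FGF6 against 33 to 49 in vehicle at 24 h) and Stab1 (0 to 4 against 6 to 12) were lower but barely detected. Hmmr, an intracellular and surface hyaluronan receptor also found on the mitotic spindle and named here after its values were seen, was lower at 4 h (-0.78) and 8 h (-0.77) and did not pass at 24 h (0.027, edgeR adjusted p = 0.557).

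Of 16 binding and crosslinking genes only 6 had enough counts to be tested, and 4 were lower at 4 and 8 h and 5 at 24 h, with 1 higher at 24 h, where 34.2%, 38.4% and 37.9% of all genes were lower. Ptx3, a pentraxin that joins the inter-alpha-inhibitor and Tnfaip6 products in crosslinked matrix, was 302 ± 16.9 CPM in vehicle against 54.3 ± 2.42 CPM with FGF6 at 4 h, and 316 ± 6.67 CPM against 7.50 ± 1.77 CPM at 24 h. Its log2 fold change was -2.47, -3.77 and -5.40 at 4, 8 and 24 h (edgeR adjusted p = 8.43e-26 at 24 h). The heavy chain genes Itih5 (8.44 ± 1.64 to 0.870 ± 0.255 CPM, log2 -3.27) and Itih2 (37.2 ± 2.82 to 15.4 ± 0.909 CPM, log2 -1.27) were lower at 24 h too, and Itih4 passed with 0 to 2 counts against 2 to 7.

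Of 9 other breakdown genes, 5 were tested, and 1 was higher and 1 lower at 4 h, 2 and 2 at 8 h, and 2 and 3 at 24 h. The 2 of 5 that passed at 4 h compare with 62.8% of all genes, and the later counts with 70.8% and 73.8%. Hexa, for a lysosomal enzyme that trims hyaluronan fragments, was lower at 24 h, at 269.9 ± 17.9 CPM in vehicle against 110.5 ± 8.48 CPM with FGF6 (log2 -1.29). Cemip2, a relative of Cemip that spans the membrane, was higher at each time, by 1.03, 1.22 and 0.68 on the log2 scale, where Cemip was lower by 1.12, 2.53 and 5.03. Hyal3 passed at 24 h (edgeR adjusted p = 0.0414) with 2 to 10 counts against 8 to 22, and its libraries overlapped.

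Of 6 proteases that cut versican, 5 were tested, and 4 were lower and 1 higher at 4 h, 4 lower at 8 h and all 5 tested lower at 24 h, where 34.2%, 38.4% and 37.9% of all genes were lower. Adamts5 fell from 307 ± 7.52 to 9.87 ± 0.744 CPM at 24 h (log2 -4.96, edgeR adjusted p = 1.89e-28), and Adamts1 from 352 ± 7.82 to 47.5 ± 1.17 CPM (log2 -2.89, edgeR adjusted p = 3.38e-28). Adamts15 went from 8.96 ± 1.47 to 0.219 ± 0.128 CPM (log2 -5.32), the latter at 2 to 8 counts a library. Adamts9 was higher by 0.34 at 4 h (edgeR adjusted p = 0.00774) and lower by 1.22 at 24 h (edgeR adjusted p = 1.44e-07). The median log2 fold change at 24 h was -2.89 for the proteases and, for the binding list, -1.91 as fitted and -0.91 with Itih4 set to the floor of 3 counts per library. That of the breakdown list, -1.0, was the value of Hyal3 with its few counts, and that of the receptors, -0.88, lay midway between Hmmr and the barely detected Stab1, so neither describes the well-expressed genes of its list.

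**Figure D5:**
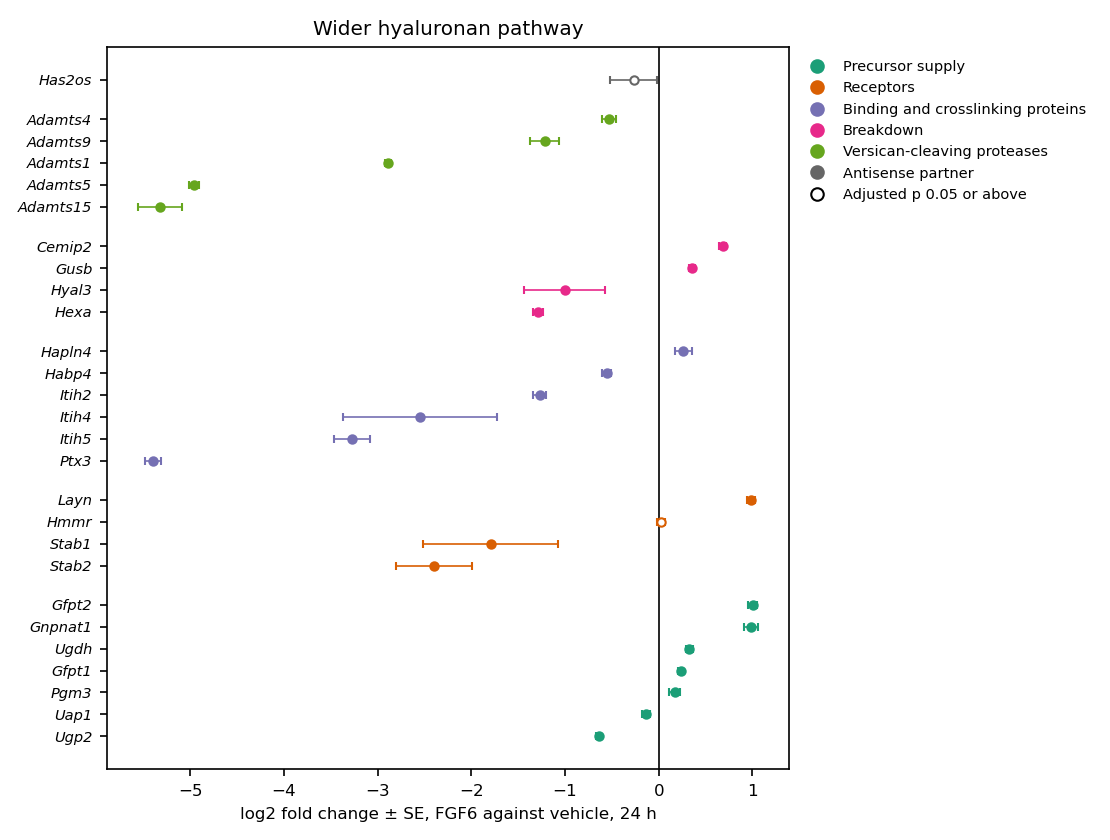
Log2 fold change of FGF6 against vehicle at 24 h with its SE (x axis) for the tested genes of the wider pathway except 1 that is not reported (y axis), coloured by role, with open points at an adjusted p of 0.05 or above. All 5 versican-cleaving proteases tested lie below 0, the Itih4 point rests on 0 to 2 counts with FGF6, and Ptx3 and Adamts15 lie furthest out at -5.40 and -5.32.

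Marker sums moved with FGF6 beside these results. The 8 stromal markers summed to 1185 to 1386 CPM in the 9 vehicle libraries and to 952 to 993, 793 to 866 and 399 to 415 CPM with FGF6 at 4, 8 and 24 h. Pdgfrb, Pdgfra and Ly6a carried that sum. Cd34 went the other way, from a mean of 12.9 CPM over the 9 vehicle libraries to 43.0 CPM with FGF6 at 24 h. The same means were 48.8 and 42.1 CPM for Ebf2 and 9.57 and 9.08 CPM for Prdm16. They pool the vehicle times, and over all 18 libraries Ebf2 spanned 31.6 to 56.5 CPM and Prdm16 5.71 to 19.9 CPM. The 6 adipocyte markers, Lep at 0 and Cidea at 0 or 1 count among them, summed to 139.9 to 255 CPM in the 9 vehicle libraries. At 24 h they summed to 230 to 255 CPM in vehicle and 82.0 to 88.9 CPM with FGF6. Endothelial markers summed to 0.137 to 0.589 CPM in the 9 vehicle libraries (0.175 to 0.589 CPM at 24 h). With FGF6 at 24 h they summed to 2.90 to 4.30 CPM, mostly from Cdh5, with Pecam1 at 7 counts or fewer. Muscle markers summed to 5.96 to 10.4 CPM in the 9 vehicle libraries (5.96 to 8.41 CPM at 24 h) and 1.6 to 2.13 CPM with FGF6 at 24 h. Leukocyte markers summed to 14.2 to 15.2 CPM in vehicle against 17.6 to 18.5 CPM with FGF6 at 4 h, and to 6.48 to 7.95 against 3.36 to 3.97 CPM at 24 h, with Ptprc and Adgre1 at 2 counts or fewer in all libraries. Epithelial markers stayed at or under 0.420 CPM. The part of these shifts in the changes of the hyaluronan genes was not tested.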

How the data were processed

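The 18 RNA libraries were sequenced on an Illumina instrument, and the authors aligned the reads to GRCm38 with STAR and counted them per gene with featureCounts of the Subread package. They deposited raw counts per gene without normalization. Tool versions, the annotation release, the strand setting and the handling of reads that map to several places are not given in the sources used here. Groups came from the sample labels.

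Starting there, filterByExpr left 15071 of 48023 genes, and TMM factors lay between 0.951 and 1.05. The quasi-likelihood test of edgeR 4.0.16 (R 4.3.3) was run on 1 mean for each of the 6 groups, with the spread estimated from the 18 libraries together and without covariates. Benjamini-Hochberg adjustment covered every gene kept. The SE is the one implied by the F statistic. CPM per kb divides CPM by the length of the merged exons of a gene in GENCODE M21, which held 98.5% of the identifiers. Floors of 3 counts cover counting error only.

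The text names the 9 genes, and up to 4 genes of each wider list with the largest absolute log2 fold change at 24 h among those that passed. One gene of the breakdown list is counted but not reported here. The members and lists were chosen with earlier results of these data known, so none is independent evidence. The alternatives were limma-voom (limma 3.58.1), DESeq2 1.42.0, upper-quartile factors, no factors beyond the library sizes, a minimum of 10 counts a library, no filter at all, a fit to the compared libraries only, the replicate number as a block, an adjusted p under 0.25 as in the study, at least 2-fold, and each library left out. Counts were also simulated for the 24 h libraries alone, with 200 genes changed. A 2-group fit to them (13988 genes) recovered 61 of 84 genes changed 1.5-fold (72.6%) and 90 of 104 changed 2-fold (86.5%), with 14 false calls. In the data 73.8% of all genes passed at 24 h and the fit used all 18 libraries, so these rates do not describe that fit.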

Additional observations from a re-analysis of the deposited data

Results flagged for a closer look

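By the interaction test of edgeR, the effect of FGF6 differed from 4 to 8 h for 6 of the 9 genes, against 30.6% of all genes. From 8 to 24 h it differed for 5, against 45.1%, and each such difference is listed here on the log2 scale. From 4 to 8 h it was 2.01 for Has1, -0.76 for Has2, 0.49 for Cd44, -0.73 for Hyal1, -1.02 for Vcan and -1.42 for Cemip. From 8 to 24 h it was 1.12 for Has1, 1.15 for Has2, 0.38 for Hyal1, -0.36 for Vcan and -2.49 for Cemip. Among the 5 genes for which both passed, the 2 differences had opposite signs for Has2 and Hyal1. Both tests use the 8 h libraries. The Hyal1 value from 8 to 24 h was the least firm, with an edgeR adjusted p of 0.0462 and a range of 0.0161 to 0.144 over the 12 fits that left out 1 library.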

How the results depend on the processing

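With 3 libraries a group, the calls that changed with the fit or a library left out were small changes of Has2, Has3, Hyal1 and Cd44. For FGF6 against vehicle at 4, 8 and 24 h, 8, 9 and 9 of the 9 genes passed, against 62.8%, 70.8% and 73.8% of all genes. For the differences of that effect from 4 to 8 h and from 8 to 24 h, 6 and 5 passed, against 30.6% and 45.1%. From 4 to 24 h in vehicle and with FGF6, 7 and 6 passed, against 60.8% and 71.2%. When at least 2-fold was asked as well, these counts were 4, 5 and 5, then 3 and 3, then 1 and 2. The matching shares of all genes were 11.3%, 18.3% and 22.8%, then 3.49% and 8.49%, then 8.24% and 19.5%. Leaving out 1 library gave counts of 8 to 8, 8 to 9, 8 to 9, 6 to 6, 4 to 5, 7 to 8 and 6 to 7. Shares of all genes in those fits are not reported here. Hyal1 at 4 h, which did not pass, changed sign from 0.0089 to -0.093 with library sizes alone, to -0.048 with upper-quartile factors, to -0.023 without the first FGF6 library and to -0.0076 without the third vehicle library, in a range of -0.023 to 0.063 over the libraries left out. The cause was not tested, but library sizes alone also moved the median of all genes at 4 h from -0.048 to -0.15. Of the single-gene values under an alternative, 1054 kept their direction and side of the threshold, 44 no longer passed, 14 newly passed and 4 changed sign. Most of the 44 came from asking for at least 2-fold, and several of the 14 from the adjusted p under 0.25. These settings change the criterion and leave the fitted value as it was. Replicate numbers share only a number in the labels: the 9 correlations of same-numbered libraries' deviations across arms lay between -0.025 and 0.051, and in 4 of 9 the own number was highest. With the replicate number as a block, the counts were 8, 9, 9, 6, 5, 7 and 6, as without it, and the block changed no call of the 9 genes. Of all 15071 genes, 9465, 10686, 11116, 4657, 6855, 9218 and 10704 passed with the block.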

Other observations

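For each of the 9 genes, the gene with the most similar pattern was sought by Pearson's r of log2 CPM over the 18 libraries, among 12298 genes with a mean of at least 1 CPM. These correlations describe libraries that share treatment and time, and carry no test. Cd44 was nearest to Cd300lb (r = 0.997), Cemip to Gstm1 (0.994), Vcan to Ryk (0.992), Has1 to Ubqln1 (0.990) and Hyal2 to Fmnl3 (0.989). Tnfaip6 was nearest to Rnf185 (0.981), Has2 to Sema4c (0.963), Hyal1 to Gys1 (0.961) and Has3, the gene with the fewest counts, to Mras (0.896). The gene ranked 100 still had r between 0.965 and 0.982 for Cd44, Cemip, Vcan, Has1 and Hyal2, and it had 0.916 for Tnfaip6, 0.909 for Has2, 0.824 for Has3 and 0.801 for Hyal1.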
